A study of Mus musculus with 9 samples.

Results

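The 9 genes described here, Spi1, Irf8, Cebpa, Cebpb, Maf, Klf4, Lmo2, Gfi1 and Myb, encode transcription factors and a cofactor of the myeloid lineage. They were taken by mouse symbol from the 47731 genes of the RNA count tables. Peaks of 5-hydroxymethylcytosine (5hmC) were taken where they overlapped the body of any of the 9 genes in GRCm38, which held for 2 of 9151 listed peaks. The libraries came from mouse macrophages kept in M-CSF, the cytokine that macrophages need to form and survive, all at passage 0. RNA depleted of ribosomal RNA was sequenced in 2 libraries labelled Tet2 knockout (KO) and 3 labelled wild type (WT), and biotin-tagged 5hmC was captured from DNA in 2 libraries of each label. TET2 is the enzyme that oxidises 5-methylcytosine in DNA to 5hmC. The labels give neither the allele, strain, age and sex of the mice nor the tissue the macrophages were grown from. They also do not state that libraries of a group are separate animals or cultures, and the p-values below therefore cover library-to-library spread, which may be technical.

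RNA libraries held 16053426 and 25479447 counts in genes for KO and 17569441 to 56394358 for WT, and 5hmC libraries held 46230 and 42489 counts in peaks for KO and 42678 and 219116 for WT. RNA levels are given as normalised CPM, counts per 1000000 of a library size scaled by the TMM method, and fold changes as log2 of KO over WT with the standard error (SE) of the fit. Tet2 itself had 228 and 122 normalised CPM in the KO-labelled libraries, against 104, 136 and 39.2 in the WT-labelled libraries, so gene-level RNA did not separate the labels, and KO and WT below are the labels of the libraries. The 10 macrophage markers examined (among them Adgre1, Csf1r, Lyz2 and Tyrobp) were all detected in every RNA library, with summed levels of 18350 and 20970 CPM in KO and 13920 to 19580 CPM in WT. WT replicate 3 stood apart in 10 stromal markers such as Col1a1 and Col1a2, which summed to 4660 CPM there, against 15.3 and 4.32 CPM in KO and 1.99 and 2.80 CPM in WT replicates 1 and 2. The KO 5hmC libraries differed from each other by less than their sampling noise. Their chi-square was 0.575 per degree of freedom over 2544 peaks, against 1.202 over 8647 peaks for the WT pair. The KO pair was counted as 1 sample in the 5hmC tests, except where said to be 2 samples. It was also 2 samples in fits with the replicate number as a block and in fits without a WT library. The p-values of fits with 2 KO samples can be too small, because the pair did not vary like independent samples. In bulk RNA, fewer cells of a type and less RNA per cell cannot be told apart.

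Macrophage identity rests on a small set of transcription factors. PU.1, the product of Spi1, opens and holds the enhancers of macrophage genes, and it binds many of them together with IRF8 or with C/EBP proteins. MAF proteins and KLF4 act later, in mature monocytes and macrophages, while LMO2, GFI1 and MYB are best known from stem cells, progenitors and the choice between granulocytes and monocytes.

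The 9 factors did not differ in 1 direction. Cebpa and Lmo2 were several-fold lower in the KO libraries and Maf was higher, with smaller differences for Irf8 and Cebpb (lower in KO) and for Spi1 (higher in KO). Klf4, Gfi1 and Myb had low levels and wide spread. By the edgeR quasi-likelihood test with Benjamini-Hochberg adjustment at 0.05, 0 of the 9 genes passed, where 0.0135% of the 14851 genes tested did so (2 genes, both higher in KO). At an unadjusted p under 0.05, 3 of the 9 genes (Cebpa and Lmo2 lower, Maf higher) were picked, against 13.8% of all tested genes (5.95% higher and 7.86% lower). DESeq2, run as an alternative test, called the same 3 genes at an adjusted p under 0.05, 1 higher and 2 lower, where it called 8.15% of all tested genes (3.37% higher and 4.79% lower). Limma-voom called 0 of the 9, against 0.00673% of all tested genes.

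The KO and WT libraries did not overlap for 7 of the 9 genes, 3 higher and 4 lower in KO, where 36.2% of all tested genes showed no overlap (17.2% higher and 19.0% lower). The size of the log2 change had a median of 1.37 over the 9 genes and 0.415 over all tested genes. The signed log2 change of all tested genes had a median of -0.03. Klf4 (log2 change -1.5 ± 1.18) and Myb (1.46 ± 0.97), with their wide spread, count in the median of the 9 genes. The 9 genes were chosen with earlier results of these data known, so neither the shares above nor these medians test the set.

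**Figure D1:**
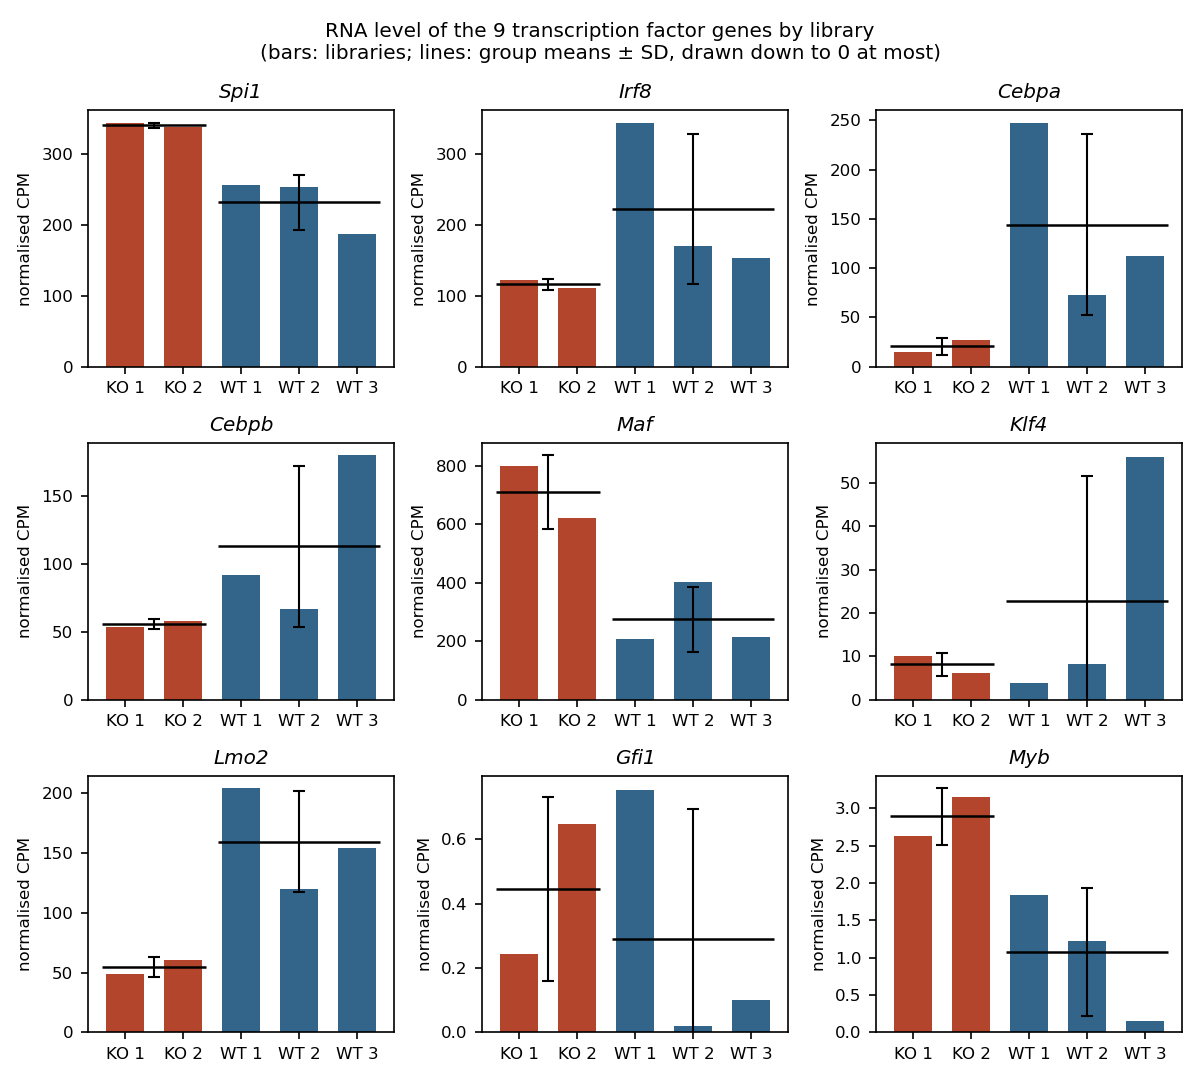
RNA level of each of the 9 genes in normalised CPM (vertical axes, each with its own scale from 0) in the KO libraries (red bars) and the WT libraries (blue bars), with the mean ± SD of each group as black lines. Cebpa has 14.7 and 26.6 normalised CPM in KO, below all 3 WT libraries, whereas the high WT mean of Klf4 comes from replicate 3.

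PU.1 is the ETS-family factor without which macrophages do not form. Spi1 (ENSMUSG00000002111, chr2:91082374-91115759) had 344 and 338 normalised CPM in KO, against 256, 253 and 188 in WT. Both KO libraries were above all 3 WT libraries and lay within a few CPM of each other. The means were 340.8 ± 4.1 in KO (SD, n = 2) and 232.4 ± 38.8 in WT (SD, n = 3). The log2 change was 0.55 ± 0.24, which did not pass (edgeR adjusted p = 0.387), and it stayed between 0.42 and 0.62 when any single library was left out.

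IRF8 is the interferon regulatory factor that pairs with PU.1 and directs progenitors to monocytes and dendritic cells. Irf8 (ENSMUSG00000041515, chr8:120736358-120756694) had 122 and 111 normalised CPM in KO, against 345, 171 and 153 in WT. The KO libraries were below all WT libraries, and WT replicate 1 was far above the other WT libraries. The log2 change was -0.94 ± 0.42 (edgeR adjusted p = 0.399) and was -0.51 without WT replicate 1. Spi1 and Irf8, whose products act as partners, thus differed in opposite directions in these libraries, neither past the threshold.

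C/EBP alpha drives the formation of granulocyte-monocyte progenitors, and C/EBP beta takes over in mature and activated macrophages. Cebpa (ENSMUSG00000034957, chr7:35119293-35121928) had 14.7 and 26.6 normalised CPM in KO, against 248, 72.7 and 112 in WT, from 241 and 700 counts in KO and 3624 to 6691 counts in WT. The highest KO library was well under the lowest WT library, and the WT libraries themselves spread more than the KO pair. The means were 20.7 ± 8.4 in KO (SD, n = 2) and 144 ± 91.9 in WT (SD, n = 3), a log2 change of -2.80 ± 0.65, or 6.96-fold lower in KO by the fit. Only 2.64% of all tested genes had a log2 change as low.

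The edgeR test gave Cebpa an unadjusted p = 0.00603 and an adjusted p = 0.210. DESeq2 gave a log2 change of -2.77 ± 0.63 and an adjusted p = 0.000577, and the adjusted p ran from 5.69e-06 to 0.995 over all alternatives. With 1 library left out, DESeq2 still called Cebpa in 4 of 5 fits, and its adjusted p was 0.103 without KO replicate 1, where KO replicate 2 stands alone and is assumed to vary like the WT libraries.

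Cebpb (ENSMUSG00000056501, chr2:167688915-167690432) had 53.1 and 58.1 normalised CPM in KO, against 91.8, 66.8 and 180 in WT. Both KO libraries were below the WT libraries, and the highest value was that of WT replicate 3, the library with stromal markers. For Cebpb the log2 change was -1.02 ± 0.46 (edgeR adjusted p = 0.402) and -0.51 without WT replicate 3, and the part of other cells in it was not tested. The ratio of Cebpa counts to Cebpb counts within a library, looked at after the values were known, was 0.277 and 0.459 in KO, against 2.70, 1.09 and 0.621 in WT.

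The sequence before the start of Cebpa, Cebpb and Irf8 is shown because 5hmC forms mainly at cytosines of CG dinucleotides, in capitals here, and because these genes were lower in both KO libraries. Each line gives the 250 bases before the RefSeq start in GRCm38.p6, 5′ to 3′ on the plus strand of the genome, on which all 3 genes lie.
Cebpa, chr7:35119043-35119292: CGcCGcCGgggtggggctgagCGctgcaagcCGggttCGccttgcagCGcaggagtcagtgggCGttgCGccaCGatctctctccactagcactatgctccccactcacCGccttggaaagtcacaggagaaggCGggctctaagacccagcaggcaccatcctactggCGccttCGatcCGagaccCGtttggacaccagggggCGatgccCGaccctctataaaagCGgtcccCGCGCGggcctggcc
Cebpb, chr2:167688665-167688914: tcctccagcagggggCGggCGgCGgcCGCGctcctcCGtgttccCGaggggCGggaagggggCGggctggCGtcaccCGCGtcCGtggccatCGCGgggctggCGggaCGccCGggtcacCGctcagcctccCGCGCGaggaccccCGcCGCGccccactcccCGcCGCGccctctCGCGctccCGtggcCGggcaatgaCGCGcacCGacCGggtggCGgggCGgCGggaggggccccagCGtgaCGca
Irf8, chr8:120736108-120736357: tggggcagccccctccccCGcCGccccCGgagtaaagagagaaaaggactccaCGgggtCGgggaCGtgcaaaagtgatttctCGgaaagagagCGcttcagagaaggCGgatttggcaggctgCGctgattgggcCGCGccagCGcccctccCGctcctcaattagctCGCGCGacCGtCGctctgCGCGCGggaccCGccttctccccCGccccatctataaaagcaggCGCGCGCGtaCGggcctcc
RefSeq lists a second start of Irf8, whose window holds 8 CG dinucleotides (43.0% of windows hold at least as many), and the window of the upstream start is shown. The printed windows hold 22 CG dinucleotides for Cebpa, 41 for Cebpb and 29 for Irf8. Of 32851 RefSeq windows of this length, 14.8% hold at least as many as Cebpa, 1.09% as many as Cebpb and 6.78% as many as Irf8. No listed 5hmC peak overlapped these windows, nor those of Klf4, Gfi1 and Myb, the other genes of the set with an entry. Neither GGAAGT, a core that PU.1 binds, nor TTGCNNAA, a form of the C/EBP element, was found on either strand of the 3 windows. Over all windows 19.7% hold GGAAGT and 9.56% hold TTGCNNAA, and 1 of 2 windows of Gfi1 holds TTGCNNAA.

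MAF is a basic leucine zipper factor of mature macrophages that activates Il10 and restrains their proliferation. Maf (ENSMUSG00000055435, chr8:115703253-115706894) had 800 and 622 normalised CPM in KO, against 207, 404 and 213 in WT. The KO libraries were above all WT libraries, of which replicate 2 came closest. The means were 711 ± 126 in KO (SD, n = 2) and 275 ± 112 in WT (SD, n = 3), and the log2 change was 1.37 ± 0.38, or 2.59-fold (edgeR unadjusted p = 0.0133, adjusted p = 0.245). DESeq2 gave a log2 change of 1.4 ± 0.43 and an adjusted p = 0.0214, with a range of 1.48e-05 to 0.995 over all alternatives. That call was kept in 1 of 5 DESeq2 fits with a library left out, the fit without WT replicate 2. Without KO replicate 1, KO replicate 2, WT replicate 1 and WT replicate 3 in turn, the DESeq2 adjusted p was 0.594, 0.141, 0.0514 and 0.0668.

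KLF4 is a zinc finger factor that promotes monocyte differentiation and is also active in stromal and epithelial cells. Klf4 (ENSMUSG00000003032, chr4:55527137-55532475) had 10.01 and 6.20 normalised CPM in KO, against 3.90, 8.29 and 56.1 in WT. The groups overlapped, and WT replicate 3 was far above all other libraries. Its log2 change was -1.5 ± 1.18 (edgeR adjusted p = 0.606), and without WT replicate 3 it was 0.40. All 10 stromal markers of the list were in the RNA table, and their summed level ran from 4.32 to 15.3 CPM in KO and from 1.99 to 4660 CPM in WT. Col3a1, Pdgfra and Thy1 were at 0 in both KO libraries, and each was also at 0 in WT replicate 1, WT replicate 2 or both. Postn and Pdgfrb were higher in both KO libraries than in WT replicates 1 and 2. Postn had 6.85 and 2.24 CPM in KO, against 0.285 and 0.428 in those WT replicates. Pdgfrb had 4.86 and 1.33 CPM in KO, against 0.398 and 0.487. The part of stromal RNA in the Klf4 values was not tested.

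**Figure D2:**
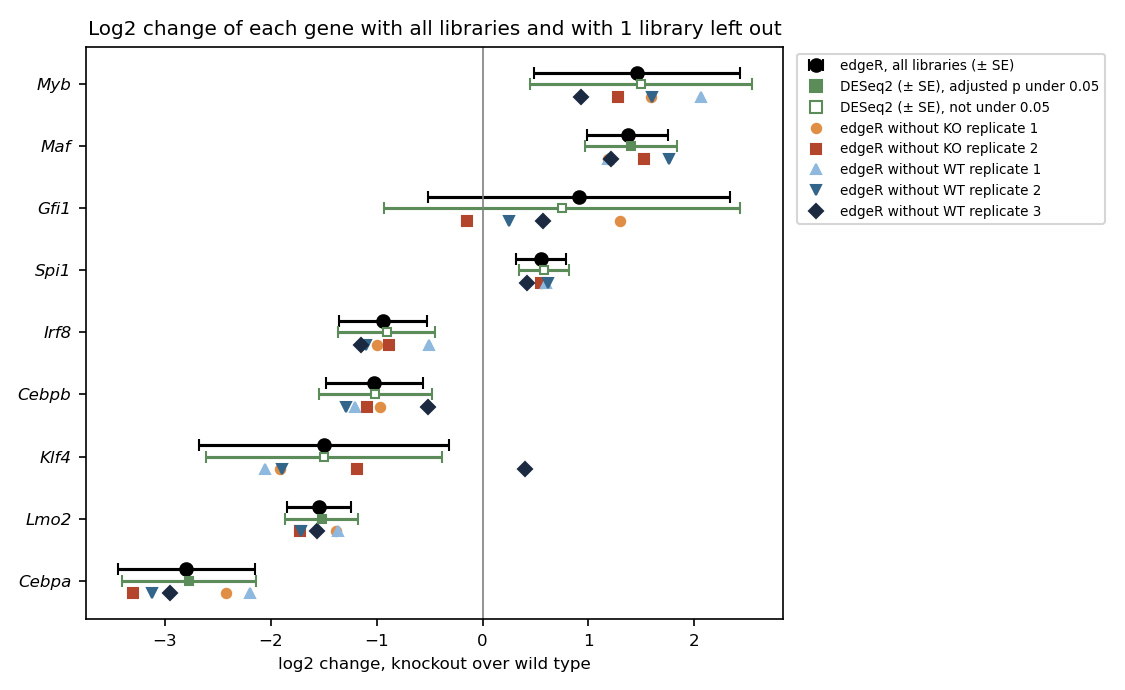
Log2 change of KO over WT (horizontal axis) for each of the 9 genes by edgeR (black, ± SE) and DESeq2 (green squares, ± SE, filled where the adjusted p is under 0.05), with small symbols for edgeR fits that leave out 1 library. Cebpa, Lmo2 and Maf keep their direction in all fits shown, and Klf4 changes sign to 0.40 without WT replicate 3. The KO and WT libraries of Cebpa, Lmo2 and Maf do not overlap, so leaving out 1 library could hardly turn them.

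LMO2 binds no DNA itself and holds TAL1 or LYL1, LDB1, E proteins and GATA factors together in a complex of blood stem cells and progenitors. Lmo2 (ENSMUSG00000032698, chr2:103957903-103981878) had 48.5 and 60.8 normalised CPM in KO, against 204, 120 and 154 in WT. No WT library came near the KO pair. The means were 54.6 ± 8.6 in KO (SD, n = 2) and 159 ± 42.3 in WT (SD, n = 3), and the log2 change was -1.54 ± 0.30, or 2.92-fold lower in KO. Of the 9 genes Lmo2 had the smallest edgeR p (unadjusted p = 0.00286, adjusted p = 0.190), and 1.495% of all tested genes had a smaller one.

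DESeq2 gave Lmo2 a log2 change of -1.52 ± 0.34 with an adjusted p = 0.000465, with a range of 8.25e-05 to 0.995 over all alternatives. The DESeq2 call was kept in 4 of 5 fits with a library left out and lost without KO replicate 1 (adjusted p = 0.115). The body of Lmo2 overlaps a second annotated gene, Gm38515, and the sources used here do not give the strand setting of the counting, so reads of the pair may not have been told apart.

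GFI1 is a repressor that favours granulocytes over monocytes and recruits the histone demethylase LSD1 (Kdm1a). Gfi1 (ENSMUSG00000029275, chr5:107716655-107725805) had 4 and 17 counts in KO, against 11, 1 and 6 in WT. In normalised CPM these were 0.244 and 0.647 in KO, against 0.752, 0.0184 and 0.1003 in WT, and the groups overlapped fully. Its log2 change was 0.91 ± 1.43 (edgeR adjusted p = 0.807) and -0.14 without KO replicate 2, so no difference was detectable at this depth. Gfi1 was highest in the libraries with the highest sums of granulocyte markers: the 12 markers summed to 72.1 and 202 CPM in KO and to 259, 51.0 and 11.4 CPM in WT. Csf3r alone gave 70.4 of the 72.1 CPM in KO replicate 1 and 129 of the 259 CPM in WT replicate 1. Of these markers Ly6g was at 0 in all 5 libraries, and Elane, Mpo, Prtn3, Ctsg, Ltf and Ngp were at 0 in KO replicate 1. Their part in the Gfi1 values was not tested.

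MYB keeps progenitors dividing and is turned down as macrophages mature. Myb (ENSMUSG00000019982, chr10:21124930-21160984) had 43 and 83 counts in KO, against 27, 67 and 9 in WT, or 2.63 and 3.16 normalised CPM in KO, against 1.85, 1.23 and 0.150 in WT. The KO libraries were above the WT libraries, of which replicate 3 was lowest by far. For Myb the log2 change was 1.46 ± 0.97, which did not pass (edgeR adjusted p = 0.552), and 0.93 without WT replicate 3. The 8 stem and progenitor markers summed to 16.0 and 11.3 CPM in KO and to 5.86, 8.57 and 35.9 CPM in WT replicates 1, 2 and 3. Ly6a alone gave 18.9 of the 35.9 CPM in WT replicate 3. The part of progenitor cells in the Myb values was not tested.

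**Figure D3:**
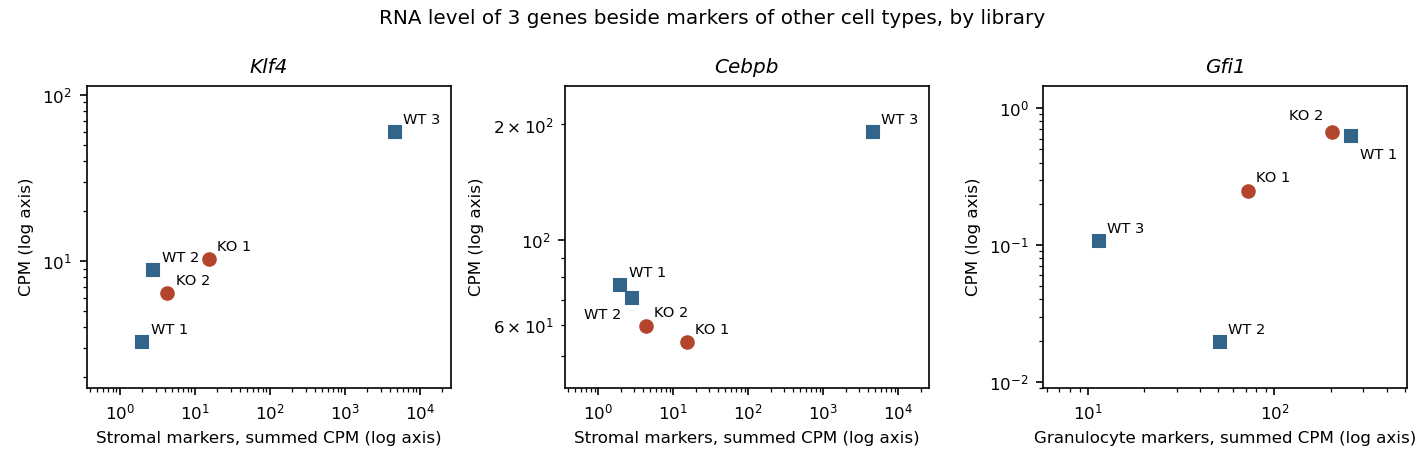
RNA level of Klf4, Cebpb and Gfi1 in CPM (vertical axes, log scale) against the summed CPM of stromal or granulocyte markers (horizontal axes, log scale), with KO libraries as red circles and WT libraries as blue squares. WT replicate 3, with 4660 CPM of stromal markers, has the highest Klf4 and Cebpb, and KO replicate 2 and WT replicate 1, with 202 and 259 CPM of granulocyte markers, have the highest Gfi1.

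Relatives, partners and known target genes of the factors were followed in 11 lists. The edgeR test called 0 genes in each list at an adjusted p under 0.05, so calls named below are those of DESeq2. DESeq2 called 3.37% of all tested genes higher and 4.79% lower. Some of the factors differed in the opposite direction to a relative named below, and others in the same direction. Values are given for the most abundant members and for the gene with the smallest p in each direction. Genes of both directions are therefore named wherever a list holds them. Of all tested genes 48.4% had a higher fitted level in KO and the others a lower one, and each of the 11 list medians turned or moved by over 1.5 times in at least 1 fit with a library left out.

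All 7 C/EBP genes were tested, 3 with a higher and 4 with a lower fitted level in KO, with a median log2 change of -0.05 (0.01 with total-count scaling). The median was not stable: it was -0.42 with limma-voom, -0.43 with a replicate block, -0.50 without KO replicate 1, -0.91 without KO replicate 2, and -0.27 and -0.30 without WT replicates 1 and 2. DESeq2 called Cebpa alone. Cebpd, induced by inflammatory signals, had 103 and 92.1 normalised CPM in KO, against 11.2, 56.5 and 24.0 in WT, a log2 change of 1.67 ± 0.64 opposite to that of Cebpa (edgeR adjusted p = 0.348). Cebpg, which lacks an activation domain, had a log2 change of -0.70 ± 0.26 (edgeR adjusted p = 0.334).

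Among blood ETS factors 11 of 12 were tested (Erg was not), with a median log2 change of 0.35, and DESeq2 called 2 higher and 0 lower. The median was 0.05 without WT replicate 3, 0.11 without KO replicate 1, 0.19 without KO replicate 2 and 0.05 with a replicate block. The genes called by DESeq2 were Spic and Spib, the closest relatives of Spi1. Spic, a factor of red pulp macrophages, had 26.3 and 12.3 normalised CPM in KO, against 3.90, 1.47 and 1.25 in WT (log2 change 3.15 ± 0.66, DESeq2 adjusted p = 0.000217, edgeR adjusted p = 0.199). Spib, a factor of B cells and plasmacytoid dendritic cells named here after its value was seen, had 6.84 and 1.79 normalised CPM in KO, against 0.547, 0.349 and 0.0836 in WT (log2 change 3.79 ± 0.98, DESeq2 adjusted p = 0.00506). Ets2 was also above all WT libraries in KO (510 and 365 normalised CPM, against 24.2, 78.5 and 239 in WT), without a call by DESeq2 (adjusted p = 0.210), and Fli1 was slightly below them (log2 change -0.43 ± 0.20, edgeR adjusted p = 0.410).

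Of 8 listed B cell markers 5 were tested. In KO 4 of these were higher without overlap, where 17.2% of all tested genes were, and Blnk was lower without overlap. Their summed level was 112 and 116 CPM in KO and 129 to 146 CPM in WT, most of it Blnk, which macrophages also express. Vpreb3 was at 0 in all libraries. Of 8 listed dendritic cell markers 5 were tested, all with a higher fitted level in KO and 2 of them without overlap. Their summed level was 20.3 and 9.14 CPM in KO, against 4.16, 5.24 and 2.20 CPM in WT, most of it Batf3 and, in KO, Ccr7. The part of B cells and dendritic cells in the Spib and Spic values was not tested.

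For the IRF family 8 of 9 genes were tested, 3 with a higher and 5 with a lower fitted level, and the median log2 change was -0.07 (0.03 with total-count scaling, 0.13 without WT replicate 1 and -0.47 without WT replicate 3). DESeq2 called Irf7 alone. Irf7, the master factor of the type I interferon response, had 288 and 190 normalised CPM in KO, against 6.91, 64.7 and 16.7 in WT (log2 change 3.02 ± 0.92, DESeq2 adjusted p = 0.0166, edgeR adjusted p = 0.269). Irf1 was on the side of Irf8, with 44.8 and 47.7 normalised CPM in KO, against 73.9, 64.98 and 86.3 in WT (log2 change -0.70 ± 0.21, edgeR adjusted p = 0.268). Irf5, a factor of inflammatory macrophages, overlapped fully (log2 change -0.02 ± 0.56, and 0.11 with total-count scaling).

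Over the 5 of 7 MAF genes tested the median log2 change was -0.74, and DESeq2 called 1 higher, Maf itself, and 1 lower. The median was 0.25 without WT replicate 3. Of the small MAF genes, which lack an activation domain, Mafg overlapped between the groups (log2 change 0.28 ± 0.25).

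Of 16 KLF genes 11 were tested, with a median log2 change of -0.29 (0.31 without WT replicate 3, -0.68 without KO replicate 1 and -0.46 without KO replicate 2), and DESeq2 called 1 higher and 1 lower. Klf9, induced by glucocorticoids, had 1.71 and 1.90 normalised CPM in KO, against 33.4, 11.2 and 21.8 in WT (log2 change -3.61 ± 0.58, DESeq2 adjusted p = 1.29e-07, edgeR adjusted p = 0.162). Klf3, a repressor, had 130 and 84.1 normalised CPM in KO, against 62.0, 56.7 and 55.6 in WT (log2 change 0.88 ± 0.24, DESeq2 adjusted p = 0.0402). The most abundant member, Klf6, overlapped (log2 change 0.38 ± 0.37), and Klf13 was slightly lower in KO (log2 change -0.55 ± 0.34, edgeR adjusted p = 0.524).

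In the LMO2 complex 8 of 10 genes were tested, and 7 of these had a lower fitted level in KO, with a median log2 change of -0.38 (-0.65 without KO replicate 1 and -0.63 with a replicate block). Gata1 and Gata2 were not tested because their counts were too low. DESeq2 called Lmo2 and Lyl1, both lower. Lyl1, named after its value was seen, had 21.7 and 19.5 normalised CPM in KO, against 86.4, 48.2 and 37.6 in WT (log2 change -1.48 ± 0.41, DESeq2 adjusted p = 0.0242, edgeR adjusted p = 0.244). Its relative Tal1 was on the other side (17.3 and 17.7 normalised CPM in KO, against 12.7, 15.4 and 10.7 in WT, log2 change 0.44 ± 0.27, edgeR adjusted p = 0.529). Runx1 overlapped (log2 change -0.40 ± 0.31), and the E protein gene Tcf12 was below the WT libraries in KO (log2 change -0.57 ± 0.25, edgeR adjusted p = 0.395).

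All 8 genes of GFI1 and its partners were tested, with a median log2 change of 0.13 (-0.12 without KO replicate 2 and -0.04 without WT replicate 1), and DESeq2 called Gfi1b alone. Gfi1b, its paralogue of the erythroid and megakaryocyte lineages, had 5.801 and 5.10 normalised CPM in KO, against 0.0684, 0.698 and 0.0167 in WT (log2 change 4.28 ± 1.34, DESeq2 adjusted p = 0.0251, edgeR adjusted p = 0.275). The 8 listed markers of those lineages summed to 33.1 and 21.4 CPM in KO and 9.96 to 129 CPM in WT. The corepressor genes Kdm1a, Ehmt2 and Rcor1 overlapped between the groups (log2 change -0.05 ± 0.18, 0.15 ± 0.20 and -0.39 ± 0.27).

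All 5 genes of the MYB family and its coactivators were tested, and all had a higher fitted level in KO, with a median log2 change of 0.38 (0.75 without WT replicate 2 and 0.23 without WT replicate 3). The count was 4 of 5 with a replicate block and without KO replicate 1, WT replicate 1 or WT replicate 3. DESeq2 called 0 of them, and 0 had an unadjusted edgeR p under 0.05. The histone acetyltransferase genes Crebbp and Ep300 had log2 changes of 0.27 ± 0.29 and 0.38 ± 0.59, with their lowest level in WT replicate 3. Mybl2, a cell cycle factor, had 21.6 and 30.3 normalised CPM in KO, against 1.23, 23.4 and 23.6 in WT, so WT replicate 1 alone was low.

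**Figure D4:**
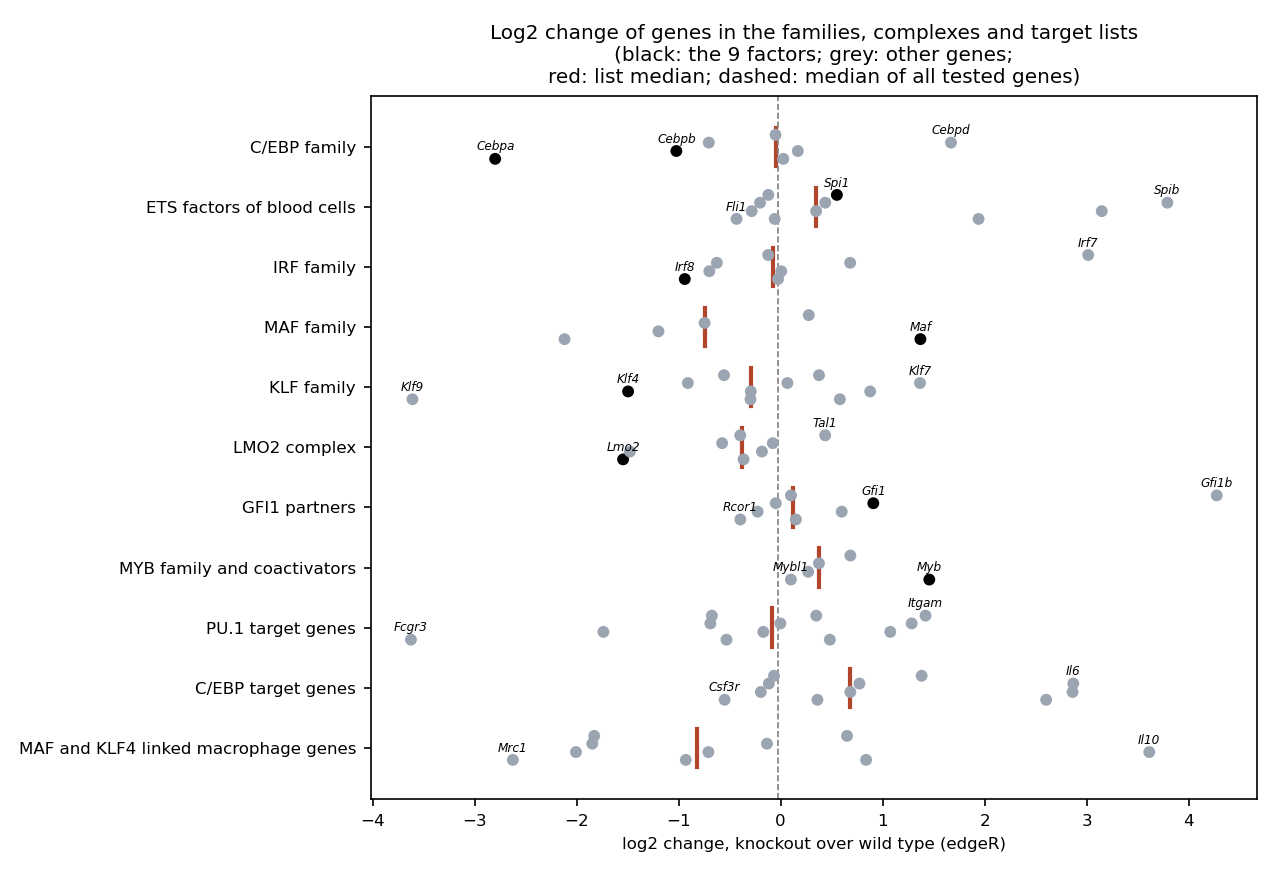
Log2 change of KO over WT by edgeR (horizontal axis) for every tested gene of the 11 lists (rows), with the 9 factors in black, other genes in grey, the median of each list as a red bar and the median of all tested genes (-0.03) as a dashed line. Cebpa and Cebpd, and Irf8 and Irf7, lie on opposite sides of the dashed line, whereas Spi1, Spib and Spic lie on the same side.

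Genes that PU.1 is known to activate did not share a direction. All 12 of the list were tested, 5 with a higher and 7 with a lower fitted level in KO and a median log2 change of -0.09 (0.06 without KO replicate 1, 0.02 without WT replicate 1, -0.23 without KO replicate 2 and -0.21 without WT replicate 3). DESeq2 called 1 higher and 2 lower. Fcgr3, a low-affinity Fc receptor gene, had 34.4 and 41.7 normalised CPM in KO, against 687, 303 and 418 in WT (log2 change -3.62 ± 0.46, DESeq2 adjusted p = 3.70e-13, edgeR adjusted p = 0.148). Fcgr1, the high-affinity Fc receptor gene, had 167 and 151 normalised CPM in KO, against 65.5, 91.6 and 69.2 in WT (log2 change 1.08 ± 0.23, DESeq2 adjusted p = 0.00169, edgeR adjusted p = 0.199). Fc receptor genes resemble each other in sequence, and the sources used here do not say how shared reads were assigned.

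Cd68, a lysosomal protein gene of macrophages, had 209 and 359 normalised CPM in KO, against 1546, 633 and 663 in WT (log2 change -1.74 ± 0.55, DESeq2 adjusted p = 0.0288). Csf1r, the M-CSF receptor gene, overlapped at 1057 and 1241 normalised CPM in KO, against 2440, 1889 and 1166 in WT. Cybb, an NADPH oxidase subunit gene, overlapped too (log2 change -0.17 ± 0.48).

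For C/EBP target genes 11 of 12 were tested (Arg1 was not), 7 with a higher and 4 with a lower fitted level in KO, and the median log2 change was 0.68 (-0.51 without KO replicate 2, 1.14 without KO replicate 1, and 2.46, 0.17 and 0.23 without WT replicates 1, 2 and 3). DESeq2 called 0 of them, and 1 had an unadjusted edgeR p under 0.05. This was Il1b, an inflammatory cytokine gene, with 19.2 and 5.06 normalised CPM in KO, against 0.752, 0.864 and 4.26 in WT (log2 change 2.60 ± 0.99, edgeR adjusted p = 0.340). Lyz2, the lysozyme gene of macrophages, overlapped (log2 change -0.19 ± 0.56). Csf3r, the G-CSF receptor gene, had 69.0 and 22.1 normalised CPM in KO, against 155, 37.3 and 8.01 in WT. S100a9, a granulocyte gene, had 0.305 and 65.9 normalised CPM in KO, against 58.9, 3.29 and 0.184 in WT. Both overlapped between the groups. S100a9 was highest in KO replicate 2 and WT replicate 1, the libraries with the highest sums of granulocyte markers, whereas Csf3r was low in KO replicate 2. Both genes are themselves among those markers, so a likeness to the sums is partly built in.

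Among macrophage genes linked to MAF or KLF4, all 10 were tested, 3 with a higher and 7 with a lower fitted level in KO and a median log2 change of -0.82. The median was -0.32, -1.31 and -0.40 without WT replicates 1, 2 and 3, -0.42 with limma-voom, and -0.04 with a replicate block, where 5 genes were higher and 5 lower. DESeq2 called 1 higher and 2 lower. Il10, the anti-inflammatory cytokine gene that MAF activates, had 57.7 and 24.9 normalised CPM in KO, against 0.752, 8.56 and 0.619 in WT (log2 change 3.62 ± 1.25, DESeq2 adjusted p = 0.0290, edgeR adjusted p = 0.309). Mrc1, the mannose receptor gene, had 132 and 134 normalised CPM in KO, against 267, 689 and 1502 in WT (log2 change -2.63 ± 0.77, DESeq2 adjusted p = 0.00959, edgeR adjusted p = 0.265). Mertk, an uptake receptor gene for dying cells named after its value was seen, had 48.4 and 36.5 normalised CPM in KO, against 267, 80.3 and 106 in WT (DESeq2 adjusted p = 0.0435). The complement genes C1qb and C1qc overlapped (log2 change -0.71 ± 1.06 and -0.93 ± 0.72).

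5hmC was then examined at the genes themselves. A listed peak lay in the body of 2 of the 9 genes, Spi1 and Lmo2, where 24.5% of RNA-tested genes had a listed peak in the body, and in or within 50 kb of 4 of the 9 genes, against 59.8% of RNA-tested genes. The bodies of the 9 genes have a median length of 9151 bases, against 20120 bases for RNA-tested genes. No listed peak lay within 50 kb of Cebpa, Maf, Klf4, Gfi1 or Myb. The distance of 50 kb was set after the data were seen, and values are counts per 100000 counts in listed peaks of the library. Of the listed peaks 7044 were called in WT only, 1151 in KO only and 956 in both. A peak listed because of a call in a single genotype can favour that genotype, so its direction is not independent of its listing. The part of this selection in the differences below was not tested.

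The peak in Spi1 (chr2:91095910-91096301, called in WT) had 6 and 5 counts in KO, against 5 and 35 in WT, or 12.98 and 11.8 per 100000 in KO, against 11.7 and 16.0 in WT. The groups overlapped, the log2 ratio of the means was -0.16, and counting error alone gave it a 95% half-width of 0.96. The peak in Lmo2 (chr2:103966822-103967379, called in WT) had 1 and 1 counts in KO, against 3 and 38 in WT, or 2.16 and 2.35 per 100000 in KO, against 7.03 and 17.3 in WT. Both KO libraries were lower, the direction that a call in WT can favour. The log2 ratio was -2.43, with a 95% half-width of 2.05 from counting error. The body of Lmo2 also overlaps Gm38515, and whether this peak lies in that gene was not examined.

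Both peaks had too few counts for the filter, and neither was tested. Without the filter the edgeR adjusted p was 0.882 for the peak in Spi1 and 0.196 for the peak in Lmo2. With the KO libraries as 2 samples as well, it was 0.878 for Spi1 and 0.0239 for Lmo2, a fit whose p-values can be too small. Among the 859 peaks that passed the filter, 19.7% were called (17.9% higher and 1.75% lower in KO), and 9.98% of 1263 genes were called on the sum of their peaks (8.39% higher and 1.58% lower). The median log2 change of all tested peaks was -0.25 with TMM scaling, -0.06 with RLE scaling and -1.29 with total counts, and 5hmC differences are to be read against that shift.

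Of the 8 further peaks within 50 kb, 3 passed the filter. The peak 1.9 kb from Cebpb, on the downstream side and called in KO, had 32.4 and 30.6 per 100000 in KO, against 4.69 and 12.3 in WT. Both KO libraries were higher, the direction that a call in KO can favour. The log2 change was 1.63 ± 0.67 (edgeR adjusted p = 0.0728, from 3.23e-05 to 0.524 over the alternatives). The peak 19.5 kb upstream of Irf8, called in WT, had 17.3 and 7.06 per 100000 in KO, against 25.8 and 35.6 in WT (log2 change -1.23 ± 0.58, edgeR adjusted p = 0.122, from 2.89e-06 to 0.433 over the alternatives). The peak 31.6 kb upstream of Irf8, called in both, had 28.1 and 25.9 per 100000 in KO, against 11.7 and 23.7 in WT. The log2 ratio of these means was 0.61. By the fit its log2 change was 0.42 ± 0.55 (edgeR adjusted p = 0.611), and -0.57 with total counts of the peaks that passed the filter. With all libraries and the KO libraries as 2 samples, the peak 19.5 kb from Irf8 passed (log2 change -2.15, edgeR adjusted p = 0.00121). It also passed with a replicate block (-2.08, edgeR adjusted p = 0.0133). The Cebpb peak passed in neither fit (edgeR adjusted p = 0.0677 and 0.0996). In both fits the KO libraries were 2 samples, so the p-values can be too small. With no filter on low counts the Cebpb peak passed (edgeR adjusted p = 0.00749). The Cebpb peak passed without WT replicate 1 or 2 (edgeR adjusted p = 0.0419 and 0.0120), and the peak 19.5 kb from Irf8 passed without KO replicate 1 or WT replicate 1 (edgeR adjusted p = 0.00289 and 2.89e-06), with the KO libraries as 2 samples where both were kept.

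The other peaks had at most 12 counts in a KO library. The peak 1.9 kb from Spi1, called in both, had 26.0 and 21.2 per 100000 in KO, against 7.03 and 19.6 in WT. Of the remaining peaks near Irf8, that 16.2 kb upstream had 4.33 and 4.71 in KO, against 11.7 and 11.4 in WT, and that 3.2 kb downstream overlapped. The peak 28.7 kb upstream of Cebpb had 19.5 and 14.1 per 100000 in KO, against 14.1 and 10.5 in WT, and the second peak near Lmo2, 38.1 kb from it, had 8.65 and 7.06 in KO, against 2.34 and 6.39 in WT. That peak was higher in both KO libraries, opposite to the peak in the body of Lmo2, from at most 4 counts in a KO library. With 2 kb added to each side of the gene bodies, the summed 5hmC gave a log2 change of 0.40 ± 0.39 for Spi1 (edgeR adjusted p = 0.525) and 1.84 ± 0.73 for Cebpb (edgeR adjusted p = 0.0791).

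**Figure D5:**
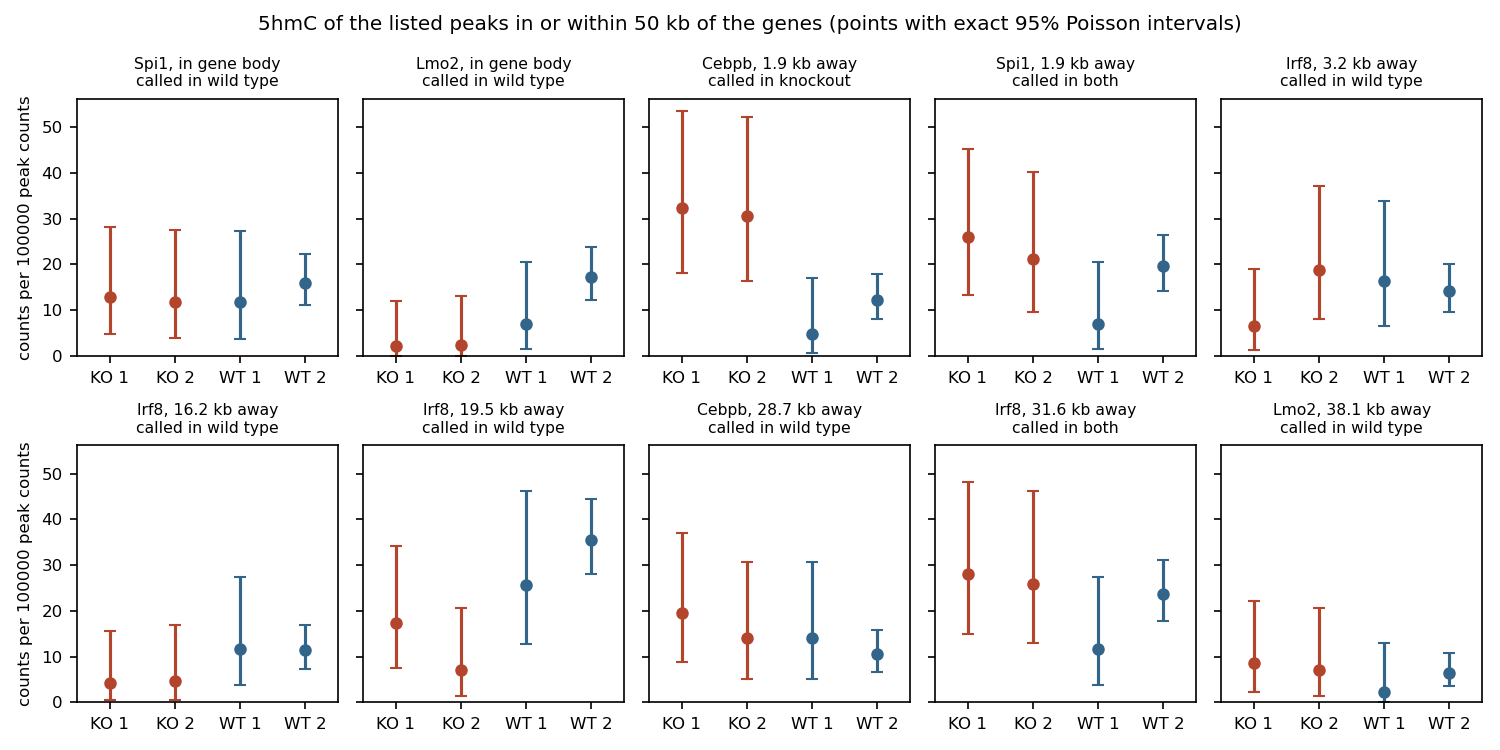
5hmC at the 10 listed peaks in or within 50 kb of the genes, in counts per 100000 counts in listed peaks (vertical axis), for each KO library (red) and WT library (blue) with exact 95% Poisson intervals, which cover counting error only. The intervals are wide: the peak in the body of Lmo2 has 2.16 and 2.35 in KO, against 7.03 and 17.3 in WT.

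Profiles over the 5 RNA libraries were compared by the root mean square difference of log2 normalised CPM, each gene centred on its own mean, a description over 5 libraries that share genotype and depth. Among the 9 genes Irf8 and Lmo2 were most alike (0.44), followed by Spi1 and Maf (0.54). Of about 11088 other genes, 511 lay within 0.2 of Spi1, with Ube3a (0.041) and Tbc1d13 (0.047) closest, so its profile was a common one. For Cebpa only 2 genes lay within 0.2, Ndst1 (0.11), a heparan sulfate enzyme gene, and Lgals3 (0.16), the galectin-3 gene of macrophages. Lgals3 had 418 and 786 normalised CPM in KO, against 5955, 2217 and 2585 in WT.

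The other nearest genes were Acsf2 (0.070) and Smim27 (0.071) for Irf8, Bcr (0.092) and Cul7 (0.095) for Cebpb, Mtr (0.078) and Trim30a (0.080) for Maf, and Abhd4 (0.066) and Irf2bp2 (0.088) for Lmo2. Klf4 was nearest to Uggt2 (0.19) and Rcn1 (0.23), both high in WT replicate 3. Gfi1, with its few counts, had the most distant nearest genes (Tpm3-rs7, whose reads can be shared with Tpm3, at 0.53 and B3gnt5 at 0.60), and Myb was nearest to Tspan32 (0.22) and Ccr3 (0.26).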

How the data were processed

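The authors deposited 1 count table for each of 9 libraries of mouse macrophages: counts per gene (2 KO and 3 WT RNA libraries) and counts per peak (2 KO and 2 WT 5hmC libraries). Groups and replicate numbers come from the sample labels. Per the submitters' processing notes, GRCm38 was the genome build and the tools included STAR, HTSeq, BWA, MACS2, Trim Galore and CASAVA 1.4. The sources used here do not give tool roles, strand setting or the rule behind the peak list. Names of peaks show calling on merged libraries of a genotype.

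Of 47731 gene IDs, 47224 were matched to a symbol. Gene bodies and promoter windows come from RefSeq (GRCm38.p6). Promoter windows were found for 6 of the 9 genes. Library totals and their precision are given above; Poisson intervals cover counting error only.

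Each assay was fitted with edgeR 4.0.16 in R 4.3.3 (TMM, filterByExpr, quasi-likelihood test, two-sided, Benjamini-Hochberg over all tested features, threshold 0.05), after tests on simulated data. Alternatives were DESeq2 1.42.0, limma-voom (limma 3.58.1), other scalings and filters, a threshold of 0.1, a replicate block, single libraries left out and KO 5hmC libraries as 2 samples. DESeq2 with libraries left out, the unfiltered fit of 2 KO samples and the 50 kb window were added after seeing the data.

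The 9 genes and the lists were chosen with earlier results of these data known. Named list genes were the 3 with the highest mean CPM and the gene with the smallest p in each direction. Genes most alike were the 2 nearest with a mean of at least 1 CPM, predicted genes and pseudogenes left out. Some list and marker genes are not reported here.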

Additional observations from a re-analysis of the deposited data

How the results depend on the processing

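The direction of 7 of the 9 RNA differences, those of Spi1, Irf8, Cebpa, Cebpb, Maf, Lmo2 and Myb, was the same in every alternative run. These are the genes whose KO and WT libraries did not overlap, so leaving out a library could hardly turn them. The share of all tested genes that keep their direction was not counted. With a library left out, Klf4 ran from -2.06 to 0.40 (0.43 with DESeq2), turning without WT replicate 3, and Gfi1 from -0.14 (-0.16 with DESeq2) to 1.30, turning without KO replicate 2. Gfi1 was not tested without WT replicate 1 or with a minimum of 1 CPM in 2 libraries. DESeq2 called Cebpa (log2 -2.77), Lmo2 (-1.52) and Maf (1.4). With a library left out, it called Cebpa in 4 fits (-3.26, -2.16, -3.10 and -2.92), Lmo2 in 4 (-1.69, -1.33, -1.69 and -1.54) and Maf in 1 (1.78). Fits with 1 KO library assume that it varies like the WT libraries.

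The count of RNA genes past the threshold, 2 with edgeR, was 4 at a threshold of 0.1, 0 with total-count scaling, 1211 with DESeq2 and 1 with limma-voom. It was 0 in every edgeR fit with a library left out and 452, 679, 893, 1325 and 1269 in the DESeq2 fits without KO replicate 1, KO replicate 2 and WT replicates 1, 2 and 3. The count of 5hmC peaks, 169, was 0 with total counts, 435 with no filter on low counts, 63 with DESeq2, 303 with the KO libraries as 2 samples, 1864 with 2 samples and no filter, and 185 to 505 with a library left out. The count of 5hmC gene sums, 126, was 19 with no filter, 19 with DESeq2, 325 with 2 KO samples, 903 with 2 samples and no filter, and 0 to 366 with a library left out.

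The replicate numbers of KO and WT do not mark pairs in the labels, and the deviations of same-numbered libraries had correlations of 0.001 and -0.124 in RNA and -0.017 in 5hmC. With the replicate number as a block, the counts were 0 RNA genes, 258 peaks and 308 gene sums. In 5hmC the block, and the fits above without a WT library, took the KO libraries as 2 samples. The block turned Klf4 (0.45), Ep300 (-0.025), S100a9 (-0.98), C1qb (0.53), the 31.6 kb Irf8 peak (-0.25) and the medians of the MAF family (0.24), the KLF family (0.26) and the C/EBP target genes (-0.27). Of the 9 genes it called 0 in RNA, and it called the peak 19.5 kb from Irf8 (-2.08).

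Values near 0 also turned. Irf5 was 0.0117 with RLE scaling, 0.0116 with DESeq2, 0.11 with total counts, 0.00445 with upper-quartile scaling, 0.10 with limma-voom, and -0.39 to 0.53 with a library left out. Kdm1a was 0.0121 with total counts, and Csf3r was 0.26 with limma-voom. With a library left out, the ranges were -1.56 to 0.999 for Csf3r, -0.017 to 0.67 for Klf6, -0.032 to 0.75 for Ep300, -0.53 to 0.15 for Cybb, -0.51 to 0.11 for Lyz2 and -6.09 to 4.27 for S100a9. List medians turned to 0.0122 (C/EBP family) and 0.027 (IRF family) with total counts and to 0.064 (IRF family) with limma-voom. With a library left out they ran from -0.47 to 0.13 (IRF), -1.11 to 0.25 (MAF), -0.68 to 0.31 (KLF), -0.12 to 0.19 (GFI1 partners), -0.23 to 0.065 (PU.1 targets) and -0.51 to 2.46 (C/EBP targets). The peak in Spi1 ran from -0.37 to 0.079 with a library left out. It was 0.27 with no filter and 0.14 with 2 KO samples and no filter. The 31.6 kb Irf8 peak was -0.57 with total counts of the peaks that passed the filter and -0.40 with 2 KO samples. With a library left out it ran from -0.28 to 0.94. The causes were not tested. In the 5hmC libraries a count of 0 allows up to 1.37 to 7.06 per 100000, and the peaks in Spi1 and Lmo2 had at most 6 counts in a KO library, so small differences there were not detectable.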

Other observations

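The macrophage markers, used above only to check the cell type, did not share a direction either. Of the 10 markers, 4 were higher and 4 lower in KO without overlap. Of all tested genes, 17.2% were higher and 19.0% lower without overlap. Adgre1, the F4/80 gene, had 7243 and 5904 CPM in KO, against 1321, 3085 and 805 in WT, and Cd14, a lipopolysaccharide coreceptor gene, had 621 and 613 CPM in KO, against 108, 325 and 322 in WT. Tyrobp, an immunoreceptor adaptor gene, had 372 and 430 CPM in KO, against 1190, 658 and 531 in WT. These genes were picked after their values were seen.

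Ratios between factor genes within a library, chosen after the values were seen, do not depend on the scaling of libraries. The labels separated in each of 4 further pairs. For Cebpa with Spi1, Maf with Irf8 and Cebpa with Cebpd this was fixed in advance. In each of these pairs 1 gene was higher and the other lower in KO without overlap. How many other gene pairs separate the labels was not examined. Cebpa counts per Spi1 count were 0.0428 and 0.0789 in KO, against 0.968, 0.287 and 0.596 in WT. Cebpa counts per Irf8 count were 0.121 and 0.241 in KO, against 0.719, 0.426 and 0.730 in WT. Maf counts per Irf8 count were 6.56 and 5.62 in KO, against 0.601, 2.37 and 1.39 in WT. Cebpa counts per Cebpd count were 0.143 and 0.290 in KO, against 22.2, 1.29 and 4.66 in WT.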
